A study of Danio rerio with 18 samples.

Results

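The stathmins are a small family of proteins that bind tubulin and promote the disassembly of microtubules, and 7 zebrafish stathmin genes are described here: stmn1a, stmn1b, stmn2a, stmn2b, stmn3, stmn4 and stmn4l. They were taken by name from tables of 25281 genes and were chosen by their counts and RPKM values across injured and control libraries, so the injury comparison itself had a part in the choice. Of 8 rows whose name starts with stmn, stmnd1 was the only one not taken, and it had 0 counts in every library. All 7 stathmins passed the filter on low counts that kept 17527 genes for testing.

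The series measured RNA in retinal ganglion cells, the neurons whose axons form the optic nerve, early after that nerve was cut. Adult zebrafish of 3 to 5 months carried isl2b:GFP, a reporter in which the promoter of the ganglion cell gene isl2b drives green fluorescent protein. Injured libraries came from eyes after optic nerve transection (ONT+) and control libraries from uninjured contralateral eyes (ONT-), both from reporter fish and both collected 6, 12 or 24 hours post injury (hpi). Each of the 18 libraries was made from 1000 fluorescent cells sorted from dissociated eyes, with 3 libraries in each of the 6 groups. Control eyes, as contralateral eyes, belonged to fish that had also been operated on. The labels do not say which injured and control eyes came from the same fish.

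A stathmin holds tubulin dimers in a complex that cannot be built into a microtubule, and phosphorylation by several kinases weakens this hold. In mammals stathmin 1 is a soluble protein found in many cells and abundant in dividing ones. Stathmins 2, 3 and 4 are neuronal and carry a lipid-modified extension that attaches them to membranes of the Golgi apparatus and growth cone, and stathmin 2 is known for its part in axon growth and maintenance. Zebrafish hold duplicated copies of several of these genes, written with the letters a and b.

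In GRCz11 coordinates the files placed stmn1a (ENSDARG00000004169) on chromosome 19 from 17205143 to 17210928, minus strand. Its paralog stmn1b (ENSDARG00000033655) was on chromosome 16 from 34523515 to 34527206, plus strand. The other pair used the same chromosomes in the opposite order. The gene stmn2a (ENSDARG00000033234) was on chromosome 16 from 16165029 to 16182319, minus strand. Its paralog stmn2b (ENSDARG00000070537) was on chromosome 19 from 31771270 to 31790551, plus strand. The files placed stmn3 (ENSDARG00000038465) on chromosome 6 from 58543336 to 58563582, plus strand. The gene stmn4 (ENSDARG00000030106) was on chromosome 20 from 34773646 to 34868814, minus strand, and stmn4l (ENSDARG00000043932) on chromosome 17 from 12698532 to 12711195, plus strand. Genes overlapping stmn1b, stmn4 and stmn4l held 4136, 1519 and 7 counts over all libraries, which is little beside the stathmins' own counts. Reads could be shared between the copies stmn1a and stmn1b, stmn2a and stmn2b, or stmn4 and stmn4l, so the division between such copies is uncertain.

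Libraries held 15490375 to 28329194 counts. Levels are given as CPM, counts scaled to a common library size with TMM factors that correct for differences in library composition. Nothing in the labels says that the replicates are separate animals, so p-values measure the spread between these samples, which may be technical. The libraries did not hold ganglion cell RNA alone, since the rod gene rho took 8.75 to 18.6% of counts in every library. Rod and cone markers summed to 143300 CPM or more. The ganglion cell content also differed between libraries. It is expressed here as a ganglion cell score, the mean log2 CPM of 29 ganglion cell markers that include no stathmin. At 24 hpi the scores were 4.63, 4.64 and 5.10 in controls and 2.98, 3.50 and 4.03 in injured libraries, with no overlap, and summed ganglion cell markers were 2527 to 3037 CPM and 1020 to 1675 CPM. At 6 hpi the scores were 4.32 to 5.04 and 3.32 to 4.75, and at 12 hpi 3.67 to 4.73 and 2.76 to 5.09. Fewer ganglion cells in a library and less RNA per ganglion cell cannot be told apart in these bulk samples. Some sample sheet numbers occur in the descriptions of 2 libraries, so the libraries were divided into 2 sets, with 4 libraries in the first set. The division is an inference from these repeated numbers, and no label names it as a batch. In the first set were control 6 hpi replicates 2 and 3, control 24 hpi replicate 1 and injured 24 hpi replicate 3.

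The libraries of uninjured eyes held the stathmins at very different levels, led by stmn1b. Which cells the transcripts in these mixed libraries came from was not tested. Divided by relative exon length, so that genes can be compared, the level of stmn1b was 1245 ± 228 CPM per kilobase over the 9 control libraries (SD, n = 9). The gene stmn4 followed with 200.8 ± 71.2 CPM per kilobase, a level 6.20 times lower. The copies of stathmin 2 stood next to each other in the order, stmn2a with 62.9 ± 19.2 and stmn2b with 37.97 ± 12.1 CPM per kilobase. Lower levels were those of the remaining 3 genes. The gene stmn4l had 24.1 ± 7.40, stmn3 11.9 ± 5.24 and stmn1a 3.20 ± 2.55 CPM per kilobase. Each gene exceeded the next in all 9 control libraries, apart from stmn2b over stmn4l and stmn3 over stmn1a, which held in 8 of 9. As a share of the summed per-kilobase level of the family, stmn1b made up 74.5 to 85.8% in controls, so the most abundant transcript was a copy of the gene that encodes the soluble stathmin in mammals. Its paralog stmn1a stood at the opposite end of the order.

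The stathmins did not pass the test for a change over time in control eyes. Over the 3 control groups 270 of 17527 genes were called by edgeR's joint test with an adjusted p under 0.05 (1.54% of genes), and 0 of the 7 stathmins were among them. DESeq2 called 733 genes, again with 0 stathmins. From 6 to 24 hpi the control log2 level of stmn4 moved by -0.09 (standard error 0.59, edgeR adjusted p = 0.998) and that of stmn4l by -0.18 (standard error 0.57, edgeR adjusted p = 0.981). That of stmn1b moved by 0.24 (standard error 0.29, edgeR adjusted p = 0.944). The largest movement was that of stmn1a, 0.96 (standard error 0.47), with an unadjusted p of 0.0473 and an edgeR adjusted p of 0.408. Without control 24 hpi replicate 1 that movement was -0.07. For the other 3 genes the edgeR adjusted p was 0.840 to 0.984. All these p-values are those of the joint test over the 3 control groups, not of the change from 6 to 24 hpi alone. From 12 to 24 hpi stmn1a moved by 1.16 (standard error 0.48). A p above the threshold does not show that levels were unchanged.

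**Figure D1:**
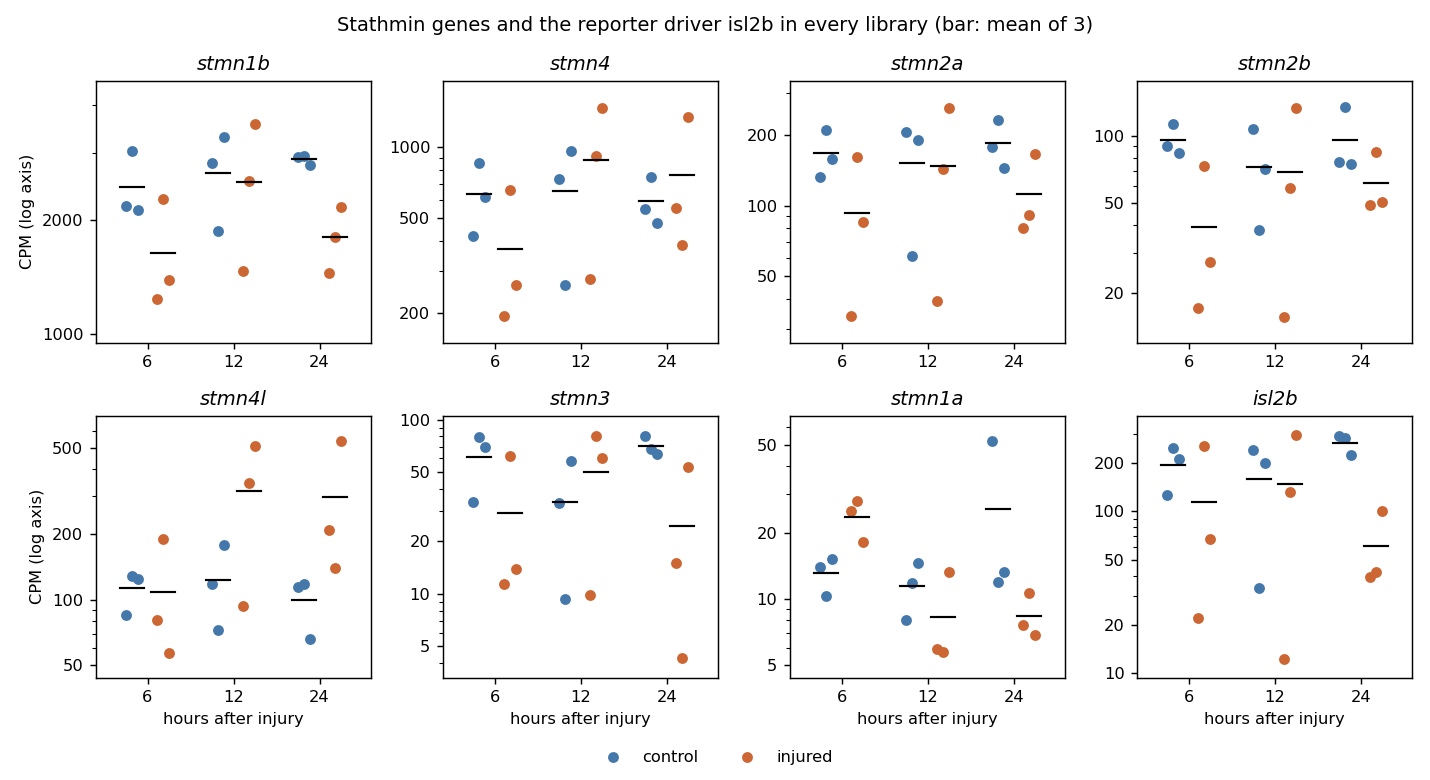
Level of each stathmin and of the reporter driver isl2b in CPM on a log axis against hours after injury, with each point a library (3 per group) and each bar the group mean. At 24 hpi every injured library lies above every control for stmn4l and below for stmn1b, stmn3, stmn1a and isl2b, while the groups overlap for stmn4.

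Within the controls the levels of stmn1b, stmn2a and stmn4 followed the ganglion cell score from library to library. This was tested for the 7 genes in control and in injured libraries, 14 relations in all, with log2 CPM against the score. The closest relation was that of stmn2a, a copy of the growth cone stathmin, with a Pearson r of 0.961 over 9 controls (exact permutation p = 6.06e-05, adjusted 0.000849) and a Spearman rho of 0.95 (exact permutation p = 0.000353). It remained 0.835 without the 2 libraries whose scores lay farthest from the median, and 0.969 within the second sheet set (n = 6). For stmn4 r was 0.871 (exact permutation p = 0.00334, adjusted 0.00894; rho 0.817, exact p = 0.0108), 0.720 without those 2 libraries and 0.860 within the set. For stmn1b it was 0.824 (exact permutation p = 0.00305, adjusted 0.00894; rho 0.80, exact p = 0.0138), 0.711 and 0.880.

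The relations of stmn2b and stmn3 in controls rested on few libraries. The r of these genes was 0.892 and 0.852 (exact permutation p = 0.00447 and 0.0132, adjusted 0.00894 and 0.0231), but 0.446 and 0.474 without the 2 libraries, and their rho was 0.667 and 0.333 (exact permutation p = 0.0589 and 0.385). The gene stmn4l had r = 0.551 in controls (exact permutation p = 0.126, adjusted 0.147; rho 0.533, exact p = 0.147), which did not pass the threshold, and 0.368 without the 2 libraries. The lowest was stmn1a, with r = -0.05 (exact permutation p = 0.841; rho -0.40, exact p = 0.291).

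In the 9 injured libraries, taken over the 3 time points, r with the score was 0.909 for stmn3 (exact permutation p = 0.00120, adjusted 0.00841; rho 0.90, exact p = 0.00203). It was 0.854 for stmn2a and 0.851 for stmn1b (exact permutation p = 0.00385 and 0.00402, adjusted 0.00894 for both; rho 0.817 and 0.717, exact p = 0.0108 and 0.0369), and 0.782 for stmn4 (exact p = 0.0167, adjusted 0.0259; rho 0.75, exact p = 0.0255). Without the 2 libraries farthest in score these 4 values lay between 0.710 and 0.925, and within the second sheet set (n = 8) between 0.843 and 0.931. For stmn4l and stmn2b r was 0.694 and 0.686 (exact permutation p = 0.0434 and 0.0446, adjusted 0.0567 for both; rho 0.60 and 0.633, exact p = 0.0968 and 0.0760), and for stmn1a 0.195 (exact permutation p = 0.603; rho 0.217, exact p = 0.581). Adjusted over the 14 relations, the Spearman p of stmn1b, stmn2a and stmn4 in controls and of stmn2a and stmn3 in injured libraries was at most 0.0387, and that of stmn1b and stmn4 in injured libraries was 0.0737 and 0.0595. The score and the stathmin level of a point come from the same library and depth. In controls and injured libraries alike the permutations exchanged libraries across the 3 time points, so these p-values take no account of differences between time points.

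**Figure D2:**
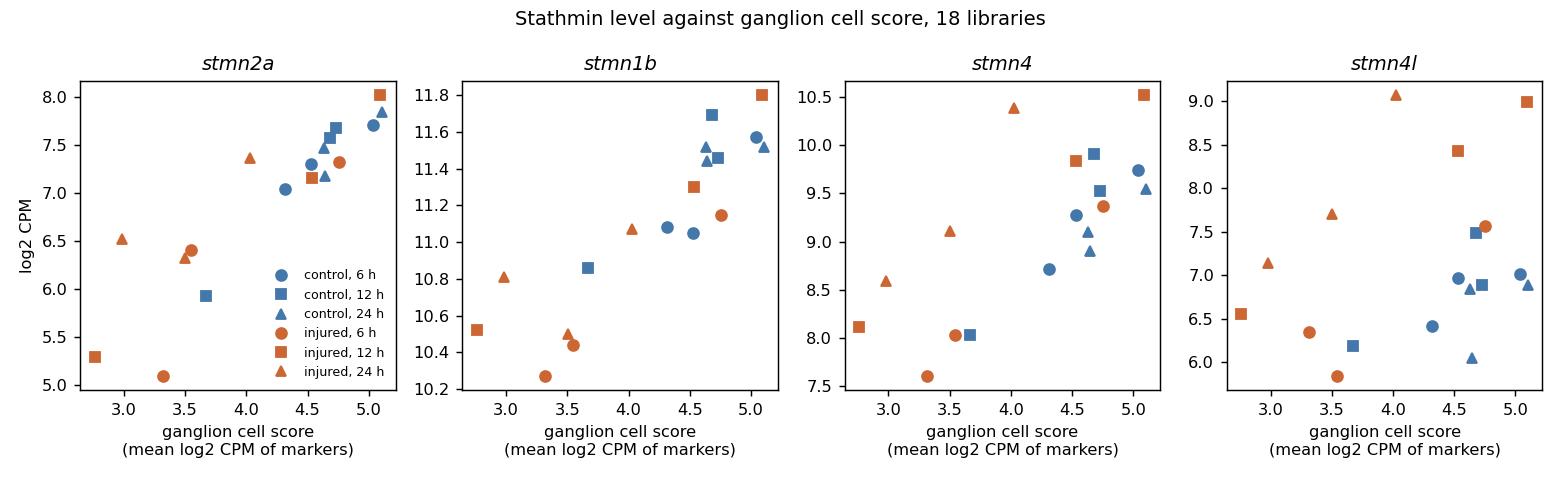
Log2 CPM of 4 stathmins against the ganglion cell score of each of the 18 libraries, with colour for control or injured and marker shape for hours after injury. The points of stmn1b lie near a common band. The injured 24 hpi points of stmn4 and stmn4l, at scores of 2.98 to 4.03 below every control at 24 hpi, lie above the controls' band or its extension. Only replicate 3 (4.03) lies within the scores of the controls, the lowest of which is 3.67. For the points at 2.98 and 3.50 the band is extended to scores that no control has. For stmn2a the fitted 24 hpi log2 fold change at equal score was smaller than for these 2 genes but also positive, 0.77 (standard error 0.27).

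The injury comparison follows, and its values for the stathmins are a description, because the genes were chosen with this comparison known. No gene was called by edgeR at any time point (0 of 17527, 0% of genes, at 6, 12 and 24 hpi). With an unadjusted p under 0.05 there were 1626, 638 and 1486 genes. DESeq2 called 79, 7 and 189 genes (0.909%, 0.0401% and 1.15% of those with an adjusted p), with 0 of the 7 stathmins among them each time. Taken as levels per library, the family total in controls and injured libraries at 24 hpi was 3955 ± 317 and 3063 ± 1084 CPM (SD, n = 3 each). Groups that did not overlap were counted over all genes for each direction. At 6 hpi 6.13% of genes were higher and 7.13% lower in every injured library, and of the 7 stathmins stmn1a was higher and stmn2b lower. At 12 hpi these shares were 4.14% and 4.26%, and all 7 stathmins overlapped. At 24 hpi they were 7.85% and 8.4%, with stmn4l higher and stmn1a, stmn1b and stmn3 lower.

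The 7 stathmins had a median log2 fold change, injured over control, of -0.76 at 6 hpi, -0.05 at 12 hpi and -0.68 at 24 hpi, where the medians of all tested genes were -0.02, 0.001 and 0.015. At equal ganglion cell score, that is with the score added to the edgeR model, these medians were -0.13, 0.02 and 0.77, and the medians of all genes -0.006, -0.014 and 0.003. The score is itself lower in injured libraries at 24 hpi without overlap, so at that time the adjusted values extend the slope shared by all libraries beyond the scores that both groups hold. Within the second sheet set, which held 2 libraries per group at 24 hpi, the log2 fold changes without the score were -0.47 for stmn1a, -0.83 for stmn1b, -1.09 for stmn2a, -0.64 for stmn2b and -3.02 for stmn3, all with the sign seen over both sets. Only 1 control of 6 hpi belonged to it, and the values there ranged from -1.47 for stmn2b to 0.73 for stmn1a. With the sheet set as a covariate, the 6 hpi values were -0.05 for stmn3, -0.20 for stmn4, 0.55 for stmn4l and 1.19 for stmn1a. Without it they were -1.06, -0.76, -0.05 and 0.84, so the 6 hpi values of these genes moved with the sheet set.

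The abundant stmn1b was lower at 24 hpi and near its control level at 12 hpi. At 24 hpi the controls had 2928, 2946 and 2787 CPM and the injured libraries 1449, 1796 and 2157 CPM. Every injured library lay below the narrow range of the controls, with a log2 fold change of -0.68 (standard error 0.29). At 6 hpi the controls had 2169, 3036 and 2120 CPM and the injured libraries 1233, 2269 and 1390 CPM. There the highest injured library reached into the controls' range, and the log2 fold change was -0.58 (standard error 0.29). At 12 hpi it was -0.08, with levels of 2660 ± 730 and 2519 ± 1051 CPM (SD, n = 3 each). At equal score the log2 fold change of stmn1b was -0.21, -0.01 and 0.003 at the 3 time points (standard errors 0.14, 0.14 and 0.16). Ganglion cell markers had a median log2 fold change of -1.49 at 24 hpi, with 5 of 30 positive, and isl2b, one of them, had -2.13. The part of ganglion cell content in the lower stmn1b was not tested.

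The 2 copies of stathmin 2, the growth cone stathmin, both had lower means in injured libraries at 6 and 24 hpi. At 24 hpi stmn2a was at 178, 230.2 and 145 CPM in controls and at 80.4, 91.6 and 165 CPM in injured libraries. Of the injured libraries only replicate 3 reached the controls, and the log2 fold change was -0.72 (standard error 0.58). The levels of stmn2b then were 76.2, 134.6 and 75.1 CPM in controls and 49.1, 84.4 and 50.9 CPM in injured libraries. Here it was injured replicate 2 that overlapped the controls, and the log2 fold change was -0.63 (standard error 0.59). At 6 hpi stmn2b was lower in every injured library, with 17.2, 73.1 and 27.4 CPM against 90.4, 112 and 84.0 CPM and a log2 fold change of -1.28 (standard error 0.60). At that time stmn2a had a log2 fold change of -0.84 (standard error 0.58), and without injured 6 hpi replicate 2 the values of stmn2a and stmn2b were -1.48 and -2.10. At 12 hpi the values were -0.05 and -0.07.

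At equal score the direction at 24 hpi turned for both copies, with log2 fold changes of 0.77 for stmn2a (standard error 0.27) and 0.96 for stmn2b (standard error 0.43). Both were positive in 8 of 8 fits with the score or isl2b as a covariate, fits that share most of their libraries. Their ratio within a library, stmn2b over stmn2a, was 0.532 to 0.686 in 6 hpi controls and 0.323 to 0.504 in 6 hpi injured libraries, and it overlapped at 12 and 24 hpi. Over the 18 libraries the log2 levels of the 2 copies had r = 0.906, a description of libraries that share ganglion cell content.

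The gene stmn3, the copy of a stathmin found in mature neurons of mammals, had the widest spread. Controls at 24 hpi had 80.6, 68.1 and 63.7 CPM and injured libraries 15.1, 4.30 and 53.7 CPM. All injured libraries were lower, though widely spread, and the log2 fold change was -1.54 (standard error 0.86). It was -2.87 without injured 24 hpi replicate 3, the library of that group with the highest ganglion cell score. At 6 and 12 hpi the log2 fold changes were -1.06 and 0.58 (standard errors 0.84 for both). That at 6 hpi was -2.26 without injured 6 hpi replicate 2. At equal score they were -0.18, 0.88 and 0.11 at 6, 12 and 24 hpi (standard errors 0.45, 0.44 and 0.48).

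The mean level of stmn4l was higher in injured libraries at 12 and 24 hpi. At 24 hpi the controls had 114, 119 and 66.0 CPM and the injured libraries 208.5, 140.5 and 538 CPM. Every injured library exceeded every control, replicate 3 by far, and the log2 fold change was 1.57 (standard error 0.58), a 2.97-fold difference. At 12 hpi the controls had 118, 72.6 and 179 CPM and the injured libraries 93.8, 344 and 509 CPM. Here injured replicate 1, which had the lowest ganglion cell score of all libraries (2.76), lay within the controls, and the log2 fold change was 1.36 (standard error 0.58). At 6 hpi the levels were 85.3, 129 and 125 CPM in controls and 81.1, 189.5 and 57.2 CPM in injured libraries. The groups overlapped there, with a log2 fold change of -0.05 (standard error 0.57).

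The values of stmn4l leaned on single libraries. Its log2 fold change at 24 hpi was 0.81 when injured 24 hpi replicate 3 was left out, and that at 12 hpi was 0.83 when injured 12 hpi replicate 3 was left out. At 6 hpi it was -0.71 without injured 6 hpi replicate 2. Within the second sheet set, which leaves out injured 24 hpi replicate 3 and control 24 hpi replicate 1, it was 0.95 at 24 hpi (2 libraries per group), and at 12 hpi, where all libraries belong to that set, each injured library but replicate 1 was above the controls.

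The gene stmn4, the more abundant of this pair, had overlapping groups at all 3 time points. At 24 hpi it had 550.5, 749 and 477 CPM in controls and 554, 387 and 1341 CPM in injured libraries. Of the injured libraries only replicate 3 was above the controls, and the log2 fold change was 0.36 (standard error 0.59), or -0.33 without that library and -0.37 within the second sheet set. At 12 hpi controls had 735.5, 262 and 959 CPM and injured libraries 277, 914 and 1464 CPM (log2 fold change 0.44, standard error 0.59). Both groups there had a low library, and it was the one with the lowest score. Without injured 12 hpi replicate 3 the value was -0.13, and without control 12 hpi replicate 2 it was 0.06. At 6 hpi the levels were 420.4, 856 and 618.5 CPM in controls and 194.5, 662 and 262 CPM in injured libraries. The log2 fold change was -0.76 (standard error 0.59), and -1.47 without injured 6 hpi replicate 2, the injured library with the highest score at that time.

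Relative to the ganglion cell score the fitted values of both genes of this pair were positive at 12 and 24 hpi. The difference between time points was not tested. At equal score the log2 fold change of stmn4 was 0.0004 at 6 hpi, 0.60 at 12 hpi and 1.76 at 24 hpi (standard errors 0.20, 0.19 and 0.21). For stmn4l it was 0.63, 1.37 and 2.80 (standard errors 0.27, 0.26 and 0.30). At 24 hpi these values correspond to 3.39-fold and 6.98-fold. With the score in the model 33 of 17527 genes were called at 24 hpi, 32 of them higher (0.183% of genes), and of the 7 stathmins stmn4l and stmn4 were among the 32. At 6 and 12 hpi edgeR with the score called 0 genes (0% of genes), and 1237 and 737 had an unadjusted p under 0.05. Both genes were called in 8 of 8 fits at 24 hpi with the score or isl2b as a covariate, each 24 hpi library left out in turn included. These fits share most of their libraries, and all but the first score fit were added after seeing the data. The genes were chosen with the same comparison known, so the 8 fits are a description and not separate support. The log2 fold changes there ranged from 1.44 to 1.88 for stmn4 and from 2.34 to 3.09 for stmn4l with libraries left out, and were 1.53 and 2.56 with isl2b as the covariate. The gene elavl4, itself a marker in the score, was also among the 32 (1.80, standard error 0.24). Markers in the score can thus differ with injury themselves, so values at equal score are not levels per ganglion cell.

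**Figure D3:**
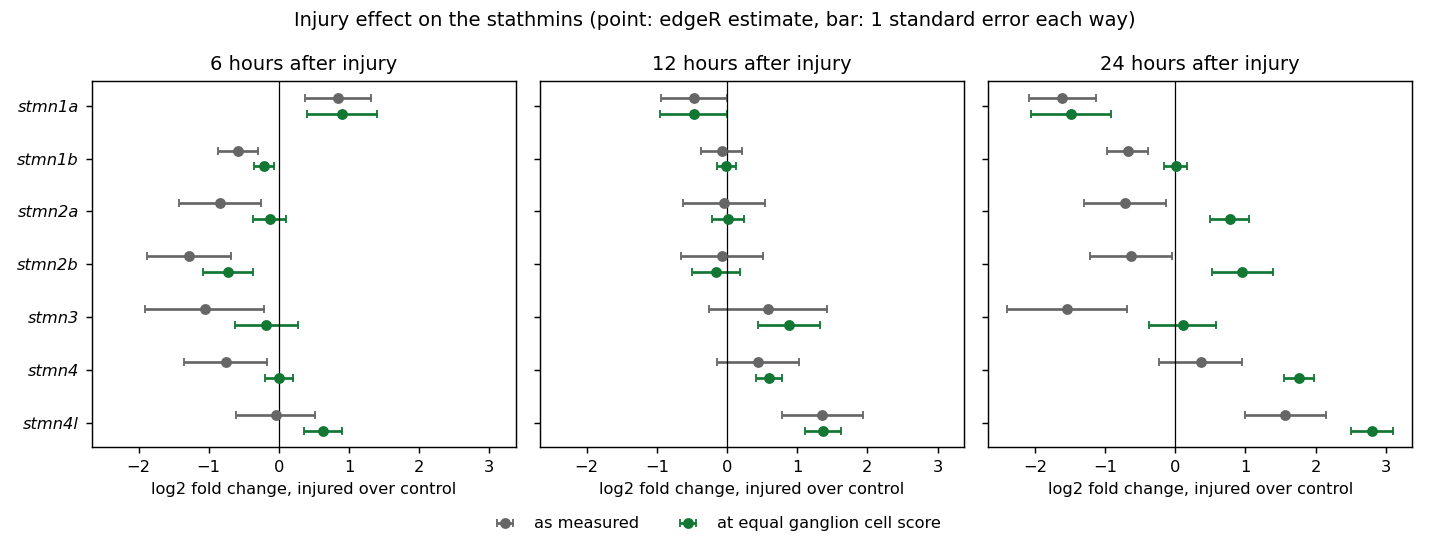
Log2 fold change of each stathmin, injured over control, at 6, 12 and 24 hours after injury, with points for the edgeR estimate and bars for 1 standard error each way, as measured and at equal ganglion cell score. At 24 hours the as-measured values run from -1.61 for stmn1a to 1.57 for stmn4l, and at equal score stmn4 and stmn4l stand at 1.76 and 2.80.

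Ratios between stathmins of the same library do not depend on library size. The ratio of stmn4l to stmn4 was 0.138 to 0.277 over all 9 controls. The injured libraries of 6 hpi had ratios of 0.417, 0.286 and 0.218, those of 12 hpi 0.339, 0.377 and 0.348, and those of 24 hpi 0.376, 0.363 and 0.401. At each time point every injured library was above every control of that time, and at 12 and 24 hpi above all 9 controls. The mean ratio was 1.66, 1.70 and 2.26 times that of the controls at 6, 12 and 24 hpi. So stmn4l stood higher relative to stmn4 at 6 hpi too, a time at which its own CPM overlapped between the groups. The gap there was narrow, with 0.218 in the lowest injured library and 0.203 in the highest control. The highest ratio of all controls, 0.277, was in control 12 hpi replicate 2, which had their lowest score (3.67). Injured 6 hpi replicate 1, with the highest ratio of its group, had that group's lowest score (3.32). In the later injured groups the order differed. At 12 hpi injured replicate 1, with the lowest score (2.76), had the lowest ratio (0.339). At 24 hpi injured replicate 3 had both the highest score (4.03) and the highest ratio (0.401). Injured replicate 2 then had the lowest of each (2.98 and 0.363). The part of ganglion cell content in this ratio was not tested.

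Set against stmn2a, which followed the score most closely in controls, both genes stood higher at 12 and 24 hpi. The mean of stmn2a itself was lower in injured libraries at 24 hpi, which enters these ratios. The log2 fold changes then were -0.72 for stmn2a, 0.36 for stmn4 and 1.57 for stmn4l. How often ratios of other gene pairs separate the groups was not tested. The ratio of stmn4 to stmn2a was 3.09 to 3.30 in 24 hpi controls and 4.22, 6.90 and 8.13 in injured libraries. At 12 hpi it was 3.59 to 5.04 and 5.63 to 7.07, again without overlap, and at 6 hpi the groups overlapped (3.19 to 4.08 and 3.09 to 5.71). The ratio of stmn4l to stmn2a at 24 hpi was 0.455 to 0.642 in controls and 1.53, 2.59 and 3.26 in injured libraries, a mean 4.58 times higher. At 12 hpi it was 0.575 to 1.19 and 1.96 to 2.41. Against stmn1b, the ratio of stmn4l was also 4.58 times higher on average at 24 hpi, without overlap, while that of stmn4 to stmn1b overlapped at every time.

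Shares of the family total, drawn from the same CPM values, were higher for stmn4l in injured libraries at 12 and 24 hpi. Of the summed per-kilobase level, stmn4l made up 0.904 to 1.45% in 24 hpi controls and 2.84 to 7.02% in injured libraries. At 12 hpi it was 1.48 to 1.93% and 2.47 to 4.54%, and at 6 hpi the groups overlapped. The share of stmn1b was 76.3 to 82.8% in 24 hpi controls and 61.05 to 78.6% in injured libraries, with overlap, and it remained the largest in every group. That of stmn4 also overlapped at 24 hpi, with 9.74 to 13.3% and 11.6 to 26.1%.

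**Figure D4:**
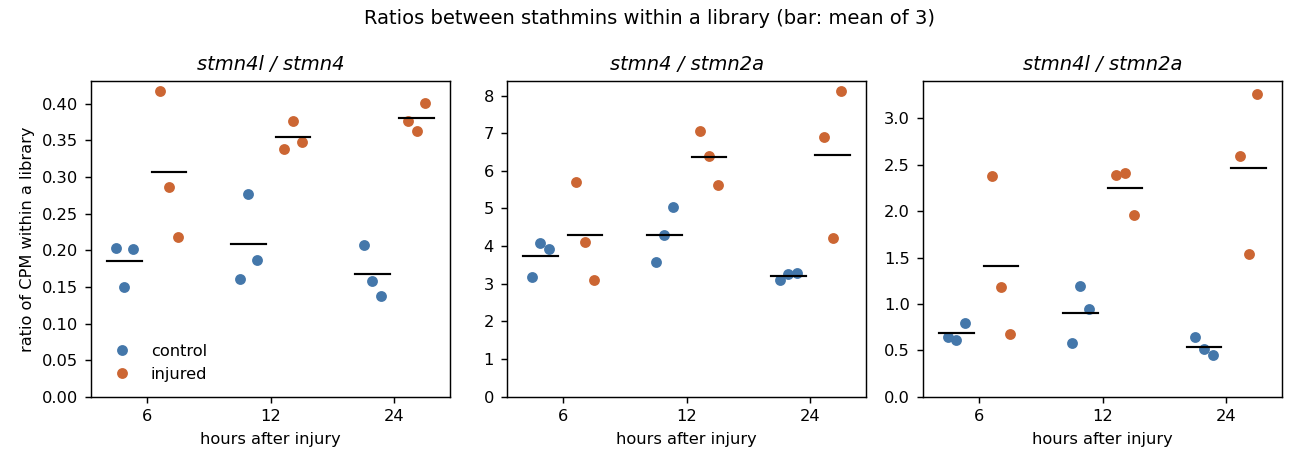
Ratios of CPM between stathmins within each library against hours after injury, on a linear axis from 0, with each point a library and each bar the mean of 3. For stmn4l over stmn4 every injured library lies above every control of its time, and at 24 hours the injured values are 0.363 to 0.401 and the controls 0.138 to 0.208.

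Set against the reporter driver isl2b, stmn1b, stmn2a, stmn4 and stmn4l stood higher at 24 hpi. The reporter driver had 291, 282 and 224 CPM in controls and 39.6, 42.2 and 101 CPM in injured libraries, with no overlap. Within a library the ratio of stmn1b to isl2b was then 10.1 to 12.4 in controls and 21.4 to 42.6 in injured libraries, a mean 3.05 times higher. For stmn2a over isl2b the mean was 2.82 times higher, for stmn4 over isl2b 5.47 times and for stmn4l over isl2b 12.6 times, each without overlap. Control 12 hpi replicate 2, the control with the lowest score (3.67), had 55.6 for stmn1b over isl2b, above these injured libraries. Its ratio of stmn2a to isl2b was 1.82, within the 1.64 to 2.17 of the injured 24 hpi libraries. Its ratios for stmn4 and stmn4l, 7.83 and 2.17, were below theirs (9.17 to 14.0 and 3.33 to 5.345). At 12 hpi the ratios to isl2b overlapped, with 3.06 to 7.83 in controls and 4.91 to 22.6 in injured libraries for stmn4, and 0.491 to 2.17 and 1.71 to 7.67 for stmn4l. Amacrine cell markers were also lower at 24 hpi, with 515 to 727 CPM in controls and 179 to 222 CPM in injured libraries, and rod and cone markers summed to 240900 to 242200 and 264900 to 278000 CPM. The part of these other cells in the stathmin values was not tested.

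The lowly expressed stmn1a is a copy of the soluble stathmin known from dividing cells. Without a covariate it had the only positive log2 fold change of the 7 genes at 6 hpi. That of stmn4l was near 0 (-0.05, standard error 0.57) and ranged from -0.71 to 0.26 with single libraries left out. Levels of stmn1a at 6 hpi were 14.0, 10.3 and 15.2 CPM in controls and 24.97, 27.8 and 18.1 CPM in injured libraries. Every injured library was higher, with a log2 fold change of 0.84 (standard error 0.47). At 12 hpi the levels were 8.04, 11.8 and 14.6 CPM and 5.96, 5.72 and 13.2 CPM, with overlap. At 24 hpi they were 52.0, 11.9 and 13.2 CPM in controls and 7.64, 10.7 and 6.85 CPM in injured libraries. Every injured library was lower, as for stmn1b and stmn3, and a single control, replicate 1, stood far above all other libraries. At 24 hpi stmn1a had a log2 fold change of -1.61 (standard error 0.48), and of -0.58 without control 24 hpi replicate 1.

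Markers of other cells were high in that control library. Its proliferating cell markers summed to 292 CPM, the highest of the 18 libraries, where the others had 117.5 to 222 CPM. Its macrophage and microglia markers summed to 141 CPM, where the other 24 hpi libraries had 1.03 to 5.16 CPM. Injured 12 hpi replicate 2 had more of these markers, 164 CPM, and its stmn1a was at 5.72 CPM, the lowest of the 18 libraries. At 6 hpi, proliferating cell markers were 118 to 222 CPM in controls and 152 to 189 CPM in injured libraries, with overlap, and the medians were 130.5 and 186 CPM. All 3 injured libraries had more of these markers than 2 of the 3 controls. Macrophage and microglia markers at 6 hpi were 4.68 to 15.8 CPM in controls and 2.42 to 34.1 CPM in injured libraries. The part of either marker list in stmn1a was not tested. At equal ganglion cell score the log2 fold changes of stmn1a were 0.90, -0.47 and -1.49, close to those without the score.

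**Figure D5:**
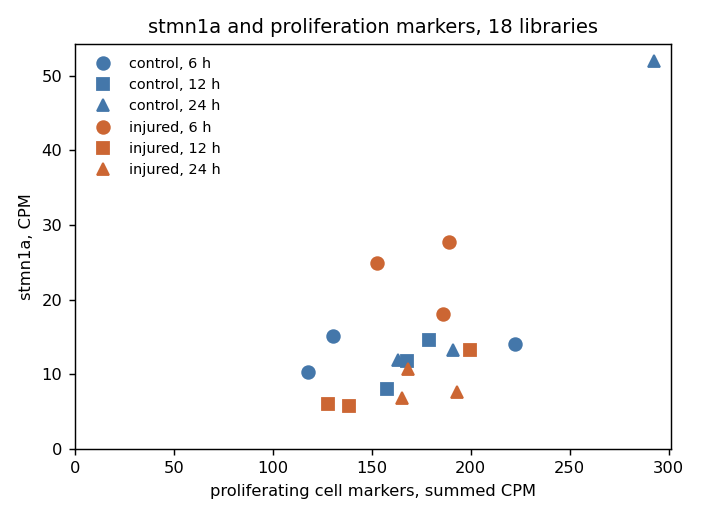
Level of stmn1a in CPM against the summed CPM of the proliferating cell markers in each of the 18 libraries, both axes linear from 0. Control 24 hpi replicate 1 stands alone at 52.0 and 292 CPM, and the 3 injured 6 hpi libraries have 18.1 to 27.8 CPM of stmn1a at marker sums of 152 to 189 CPM.

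The log2 levels of the stathmins were also set against each other over the 18 libraries. Between stmn1b, stmn2a, stmn2b, stmn3 and stmn4, r ranged from 0.597 to 0.906. For stmn4 with stmn4l it was 0.817, and for stmn4l with stmn1b, stmn2a, stmn2b and stmn3 it was 0.324 to 0.453. For stmn1a with the other 6 genes it was -0.33 to 0.169. These values are descriptions over libraries that share ganglion cell content and injury.

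The genes whose log2 levels were most like each stathmin were sought among 8767 genes with a mean log2 CPM of at least 3, over the 18 libraries. For stmn4 they were uchl1, a neuronal deubiquitinating enzyme (r = 0.951), the Rab GTPase gene rab6bb (0.945), jpt1b (0.932), the 14-3-3 gene ywhag2 (0.922) and the reticulon gene rtn1a (0.918). Their log2 fold changes at 24 hpi were -0.03, -0.32, 0.10, -0.06 and -0.12. For stmn4l they were the major vault protein gene mvp (r = 0.907), the transcription factor gene csrnp1b (0.879), the synaptotagmin gene syt4 (0.878), the stress-response transcription factor gene ddit3 (0.872) and syt11b (0.857). Their log2 fold changes at 24 hpi were 2.74, 0.86, 0.41, 1.08 and 0.85. Genes picked for likeness over these libraries share the differences between the groups by construction, so these fold changes are a description.

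For stmn1b the most alike genes were gng3 (0.938), gpm6ab (0.936) and gng13b (0.923), a pair of G protein subunits and a membrane glycoprotein. For stmn2a they were the tetraspanin gene cd81a (0.968), gpm6ab (0.966) and the calpain subunit gene capns1b (0.963). For stmn2b they were the neuronal RNA-binding gene elavl3 (0.947), cspg5a (0.930) and the adhesion gene alcamb (0.928). For stmn3 they were the synaptic SNARE gene snap25a (0.977), CABZ01072077.1 (0.973) and si:dkey-7j14.5 (0.967). The values for stmn1a were lower, with macrod2 (0.779), si:dkey-188i13.11 (0.755) and dut, which encodes an enzyme of nucleotide metabolism (0.711). Of these, elavl3 is one of the markers in the score.

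Other regulators of microtubules were taken as a list of 59 tested genes, which covers microtubule-associated proteins, plus-end binding proteins, collapsin response mediators and severing enzymes. Of the 59, edgeR and DESeq2 each called 0 at every time point, with 9, 0 and 4 at an unadjusted edgeR p under 0.05 at 6, 12 and 24 hpi (15.3%, 0% and 6.78%, where all tested genes had 9.28%, 3.64% and 8.48%). The log2 fold change was positive for 16, 30 and 20 of them at 6, 12 and 24 hpi, where 48.0%, 50.1% and 51.4% of all tested genes were positive. The list medians were -0.28, 0.04 and -0.17. At equal score edgeR called 0 of the 59 at 24 hpi, with 9 at an unadjusted p under 0.05 (15.3%, where all tested genes had 6.73%). The list median was then 0.11. The most abundant were map1ab, a microtubule-associated protein (1094 ± 72.5 and 1211 ± 94.9 CPM in 24 hpi controls and injured libraries, log2 fold change 0.15, edgeR adjusted p = 0.926), the plus-end binding mapre3b (195.5 ± 12.8 and 200.3 ± 6.28 CPM, 0.04, edgeR adjusted p = 0.983) and the collapsin response mediator dpysl5a (144 ± 6.91 and 121 ± 42.8 CPM, -0.25, edgeR adjusted p = 0.944; SD, n = 3 each). At equal score dpysl5a was at 0.80 (standard error 0.22) at 24 hpi.

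Kinases known to phosphorylate stathmins in mammals, with 28 tested genes, had 0 edgeR calls at each time point, with or without the score. At an unadjusted edgeR p under 0.05 there were 2, 0 and 3 at 6, 12 and 24 hpi (7.14%, 0% and 10.7%, where all tested genes had 9.28%, 3.64% and 8.48%). DESeq2 called 0, 0 and 1, where 0.909%, 0.0401% and 1.15% of all genes were called. Their log2 fold change was positive for 14, 13 and 13 genes at 6, 12 and 24 hpi, where 48.0%, 50.1% and 51.4% of all tested genes were positive. The medians of the kinases were 0.01, -0.04 and -0.08. The most abundant were the calmodulin-dependent kinase genes camk2g1, camk2d2 and camk2g2. At 24 hpi camk2g1 had 191 ± 16.4 and 202 ± 12.6 CPM in controls and injured libraries (log2 fold change 0.08, edgeR adjusted p = 0.944; SD, n = 3 each). The values of camk2d2 were 125 ± 14.1 and 109 ± 42.8 CPM (-0.20, edgeR adjusted p = 0.906) and those of camk2g2 130.1 ± 18.7 and 141 ± 18.7 CPM (0.12, edgeR adjusted p = 0.901).

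Axon growth genes, a list of 37 tested genes that shares its neurofilament and internexin members with the ganglion cell markers, also had 0 edgeR calls at each time point. There were 7, 5 and 9 of them at an unadjusted edgeR p under 0.05 (18.9%, 13.5% and 24.3%, where all tested genes had 9.28%, 3.64% and 8.48%). DESeq2 called 2, 0 and 5, where 0.909%, 0.0401% and 1.15% of all genes were called. At equal score 5 of the 37 were called at 24 hpi, all higher, where 0.183% of all genes were. Without injured 24 hpi replicate 3 the same model called 4 genes in all, stmn4 and stmn4l among them, so at most 2 of these 5 could remain. They were the growth cone gene gap43 (2.45, standard error 0.42), the transcription factor genes sox11b (2.43, standard error 0.29) and atf3 (2.17, standard error 0.38), the neuropeptide gene adcyap1b (3.58, standard error 0.54) and the intermediate filament gene prph (1.71, standard error 0.25). Like stmn4l, gap43 was higher in every injured library at 24 hpi, with 235, 200.8 and 569 CPM against 84.3, 169.5 and 99.5 CPM (log2 fold change 1.51, standard error 0.53), replicate 3 again highest. The most abundant genes of the list were jun, with a log2 fold change at 24 hpi of 0.59 (edgeR adjusted p = 0.470), marcksl1b with -1.06 (edgeR adjusted p = 0.252) and the tubulin gene tuba1c with -0.66 (edgeR adjusted p = 0.602).

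In the authors' deposited table at 24 hpi, whose model is not given in the sources used here, 4 of the 7 stathmins had an adjusted p under 0.05, where 506 of 21035 genes did (2.41%, of which 0.466% higher and 1.94% lower). The authors' deposited table gives stmn4l a log2 fold change of 1.56 (adjusted p 0.000576), stmn1a -1.63 (0.0146), stmn1b -0.69 (0.0134) and stmn3 -1.54 (0.0492). At 6 and 12 hpi 0 of the 7 passed in the authors' deposited table, where 0.603% and 0.109% of genes did. The genes were chosen with the injury comparison known, so the 24 hpi calls are a description and not separate support. In the edgeR fit without control 24 hpi replicate 1 the 24 hpi value of stmn1a was -0.58.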

How the data were processed

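Stathmin rows were read from the authors' 3 deposited tables, 1 per time point, for 18 libraries in 6 groups of 3. The members, gene lists and tests were chosen with earlier results of these data known. Per the file headers the authors deposited whole-number counts per gene, without normalization, and RPKM values. The authors' deposited log2 fold changes and adjusted p-values come from a test whose model is not given in the sources used here. The genome build was GRCz11, per the submitters' processing notes, and the aligner, counter, annotation release and use of strand are not given in the sources used here. The headers mark injured 6 hpi replicate 1 alone as trimmed. The number of count columns that matched no sample was 0.

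The main test was edgeR's quasi-likelihood test (edgeR 4.0.16, R 4.3.3) on counts with TMM factors, with a mean for each group over all 18 libraries, on the 17527 genes kept by filterByExpr at a minimum count of 10. Adjustment followed Benjamini and Hochberg over all tested genes, with calls made below an adjusted p-value of 0.05. The common biological coefficient of variation was 0.517. A standard error is the log2 fold change divided by the square root of F. CPM came from edgeR with TMM factors, and log2 CPM from a prior count of 2. Relative exon lengths were read back from the deposited RPKM. They varied 1.13-fold between libraries in common for all genes. Alternatives used other size factors, DESeq2 1.42.0, no filter, only the libraries of a comparison, a replicate block, the sheet set or the ganglion cell score as a covariate, and each library left out. The isl2b covariate, and the score with libraries left out, were added after seeing the data. Permutation tests were exact, two-sided and not stratified by time point.

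Replicates differed beyond counting noise (chi-square per gene 23.2 to 101), so none was counted as a duplicate. Amplified reads carry no molecular identifiers, so counts alone understate the error of sampling 1000 cells. Named genes were the stathmins, isl2b, gap43, the genes most alike over the libraries (5 for stmn4 and stmn4l, 3 for each other stathmin), list members called in an injury comparison and the 3 most abundant members of each of the 3 gene lists. The axon growth genes sox11b, atf3, adcyap1b and prph and the ganglion cell marker elavl4 were named after their values were seen. No sequences are shown.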

Additional observations from a re-analysis of the deposited data

Results flagged for a closer look

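The gene stmn1a had log2 fold changes of opposite sign at 2 time points. At 6 hpi every injured library was higher than every control, as for 6.13% of genes, with a log2 fold change of 0.84. At 24 hpi every injured library was lower, as for 8.4% of genes, with a log2 fold change of -1.61. Neither edgeR nor DESeq2 called stmn1a at either time. The difference between the time points was not tested. The 24 hpi value was -0.58 without control replicate 1, and the 6 hpi value ranged from 0.70 to 1.00 with single libraries left out.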

How the results depend on the processing

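The count of genes called for the injury effect at 6 hpi, 0 in the main fit, was 6 with only the libraries of the comparison, 79 with DESeq2, 1 with the score in the model but without control 6 hpi replicate 2, and 0 with each library left out. At 12 hpi, also 0, it was 7 with DESeq2 and 1 with isl2b as a covariate. At 24 hpi, again 0, it was 2 without the filter, 50 with only the libraries of the comparison, 189 with DESeq2, 33 with the score and 31 with isl2b as a covariate, and 0 to 4 with single libraries left out (4 without injured replicate 2, 1 without control replicate 3). With the score as a covariate and single 24 hpi libraries left out it was 13 without control replicate 1, 14 without control replicate 2, 13 without control replicate 3, 39 without injured replicate 1, 41 without injured replicate 2 and 4 without injured replicate 3. The control groups over time gave 270 calls, 457 with the score, 733 with DESeq2, and 128 to 327 with single libraries left out (145 without control 24 hpi replicate 1, 128 without replicate 2). With sheet set as a covariate these counts were 0, 0, 0 and 261. With the replicate number as a block they were 0, 0, 0 and 221. Same-numbered libraries correlated at -0.07 to 0.13 and 9 of 18 were most like their own number, so the numbers are not shown to pair the samples. The causes of these differences were not tested.

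Of 420 alternative log2 fold changes of the stathmins 357 lay within 1 SD of the main value, and 61 had the other sign. The most, 13, were those of stmn4l at 6 hpi, where the main value was -0.05 and alternatives reached 0.74. At 24 hpi stmn2a and stmn2b had 8 each, all with the score or isl2b in the model, and stmn1b and stmn3 had 5 each. At 12 hpi stmn2a had 8 and stmn1b 5, with main values of -0.05 and -0.08. Control changes of the stathmins kept their side of the threshold in 112 of 112 alternatives. Levels from the deposited RPKM were within 1 SD of those given in 41 of 42 cases. With 3 libraries per group the standard errors of stmn2a, stmn2b, stmn4 and stmn4l were 0.57 to 0.60 on the log2 scale, and even the value of 1.57 for stmn4l at 24 hpi was not called without a covariate.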
